A study of Mus musculus with 8 samples.

Results

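Of 47643 genes in the count table, 7 are described here: P2rx3, Ubap1l, B4galnt2, Ltb, Hapln4, Alox12b and Serp2. The pick left out genes counted in the stress response driven by the transcription factor ATF4. Whether these 7 belong to that response was not tested. They were picked because their counts were far below wild type (WT) in each of 3 knockouts (KO) of the microRNA pathway. The difference of each knockout from WT therefore chose the genes, and it is given as a description with no test. The genes' relatives and neighbours and their promoters were not part of that choice, although it used the same libraries. Differences among the 7 genes' knockout levels were limited by it, since a gene that stayed high in any knockout could not be chosen.

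The cells were E14, an embryonic stem cell line of the 129/Ola mouse background, and their polyadenylated RNA was sequenced. All groups were grown in 2i medium, N2B27 with LIF, CHIR99021 and PD0325901, which keeps such cells in a naive state by blocking the kinases GSK3 and MEK. The groups were Ago1_2 KO, Drosha KO, Dgcr8 KO and WT, with 2 libraries each, and the labels name no clones or separate cultures, so p-values measure only the spread between these libraries. MicroRNAs are short RNAs that lower target mRNAs: DROSHA, with its partner DGCR8, cuts their primary transcripts in the nucleus, and Argonaute proteins such as AGO1 and AGO2 bind the mature forms. Cells without a working pathway lose most microRNAs.

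Total counts per library lay between 13229771 and 26333907. Drosha mRNA was lower in the libraries labelled Drosha KO, with 51.2 and 82.4 CPM (counts scaled to a common library total) against 278 and 266 CPM in WT. Dgcr8 mRNA was higher in the libraries labelled Dgcr8 KO, with 392 and 370 CPM against 78.1 and 70.5 CPM in WT. Ago1 and Ago2 mRNA were not called in the libraries labelled Ago1_2 KO (log2 fold changes 0.56 ± 0.36 and -0.75 ± 0.32, SE, edgeR adjusted p 0.301 and 0.132). In Drosha KO the other 3 of these 4 genes, Dgcr8 among them, were called higher, beside 6.54% of all genes. The rise of Dgcr8 mRNA was therefore not particular to Dgcr8 KO. Counts over a whole gene do not show whether a part of it was deleted, so these values check only the Drosha label, and the names Ago1_2 KO and Dgcr8 KO below are those of the labels. All 10 listed embryonic stem cell markers were expressed and none was called in any of the 3 knockouts, with summed levels of 6799 to 9660 CPM in the 6 knockout libraries and 8582 to 9967 CPM in WT.

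None of the 7 genes is known as a marker of embryonic stem cells, and their best described roles lie in other tissues. P2rx3 encodes an ATP-gated ion channel of pain-sensing neurons. Ubap1l is a little-studied relative of Ubap1, whose product is a subunit of the ESCRT-I complex that sorts ubiquitinated membrane proteins. B4galnt2 encodes a glycosyltransferase that adds N-acetylgalactosamine to make the Sda blood group antigen. Ltb encodes lymphotoxin beta, which anchors lymphotoxin alpha at the surface of lymphocytes, where the complex is the ligand of the receptor LTBR. Hapln4 encodes a link protein that ties hyaluronan to proteoglycans around neurons. Alox12b encodes a lipoxygenase that works with the product of its neighbour Aloxe3 in the water barrier of the skin. Serp2 is a relative of Serp1, whose product RAMP4 sits at the translocon, the channel through which new proteins enter the endoplasmic reticulum.

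The genes lie on 6 chromosomes of mouse build GRCm38. P2rx3 lies on chromosome 2 (84998583 to 85037462, minus strand, ENSMUSG00000027071.14). Ubap1l lies on chromosome 9 (65361041 to 65380377, plus strand, ENSMUSG00000086228.2). B4galnt2 (95865943 to 95914891, minus strand, ENSMUSG00000013418.8) and Alox12b (69156989 to 69169792, plus strand, ENSMUSG00000032807.5) are both on chromosome 11, far apart. Ltb lies on chromosome 17 (35194439 to 35196320, plus strand, ENSMUSG00000024399.5). Hapln4 lies on chromosome 8 (70083457 to 70090862, plus strand, ENSMUSG00000007594.10), and Serp2 on chromosome 14 (76532814 to 76556889, minus strand, ENSMUSG00000052584.10). Their annotated transcripts had a median GC content of 57.0%, against 49.7% over 16315 genes tested with a value, and Ltb was highest at 61.0%.

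Promoters, 250 bases before to 50 bases after the start site, were looked at because the 7 genes were low together. RefSeq records of build GRCm38.p6 were found for 5 of the 7 genes: Alox12b, B4galnt2, Ltb, Ubap1l and Serp2, the last with 2 start sites. Sequences with a match to a listed motif and, for contrast, 1 without are shown 5′ to 3′ on the gene's strand, with matches in capitals. They are chr17:35194257-35194556 (plus) for Ltb, chr11:95914822-95915121 (minus) for B4galnt2, chr11:69156822-69157121 (plus) for Alox12b, chr14:76556867-76557166 (minus) for the Serp2 start site with a match and chr9:65360779-65361078 (plus) for Ubap1l, the one of lowest GC content.
Ltb: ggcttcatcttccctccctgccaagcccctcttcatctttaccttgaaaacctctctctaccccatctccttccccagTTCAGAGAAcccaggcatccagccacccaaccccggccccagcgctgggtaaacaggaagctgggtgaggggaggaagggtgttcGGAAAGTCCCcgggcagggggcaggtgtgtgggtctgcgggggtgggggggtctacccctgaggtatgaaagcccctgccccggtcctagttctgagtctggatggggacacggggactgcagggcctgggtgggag
B4galnt2: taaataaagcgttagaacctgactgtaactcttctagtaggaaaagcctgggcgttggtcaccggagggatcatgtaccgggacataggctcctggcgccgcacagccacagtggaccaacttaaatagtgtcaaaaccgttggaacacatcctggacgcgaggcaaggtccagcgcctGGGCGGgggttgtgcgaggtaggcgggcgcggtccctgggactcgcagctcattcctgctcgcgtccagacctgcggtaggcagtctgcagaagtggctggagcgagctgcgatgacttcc
Alox12b: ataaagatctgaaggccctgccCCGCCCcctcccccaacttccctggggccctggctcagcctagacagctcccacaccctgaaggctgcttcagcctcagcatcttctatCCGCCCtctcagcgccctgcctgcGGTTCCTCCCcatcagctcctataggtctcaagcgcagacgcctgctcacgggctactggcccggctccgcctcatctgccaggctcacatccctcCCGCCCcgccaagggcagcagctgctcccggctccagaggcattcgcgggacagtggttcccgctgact
Serp2: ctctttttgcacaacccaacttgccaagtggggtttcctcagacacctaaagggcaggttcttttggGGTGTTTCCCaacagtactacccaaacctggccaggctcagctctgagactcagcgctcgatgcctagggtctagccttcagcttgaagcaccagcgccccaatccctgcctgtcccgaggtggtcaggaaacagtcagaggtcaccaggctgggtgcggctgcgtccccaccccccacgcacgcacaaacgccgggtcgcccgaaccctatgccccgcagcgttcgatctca
Ubap1l: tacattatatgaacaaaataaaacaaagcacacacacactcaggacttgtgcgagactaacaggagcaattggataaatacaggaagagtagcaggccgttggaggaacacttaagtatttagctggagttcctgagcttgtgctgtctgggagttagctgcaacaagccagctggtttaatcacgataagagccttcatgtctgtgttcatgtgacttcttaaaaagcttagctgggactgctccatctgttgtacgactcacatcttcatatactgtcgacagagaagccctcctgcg

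The Ltb promoter held the STAT motif TTCNNNGAA at bases -172 to -164 and the NF-kB motif (GGGA, 4 bases of any kind, CC, on either strand) at -87 to -78. The B4galnt2 promoter held 1 GC box (GGGCGG) at -71 to -66. The Alox12b promoter held 3 GC boxes on the other strand and the NF-kB motif at -115 to -106. The Serp2 sequence shown held the NF-kB motif at -183 to -174. Motifs were sought on both strands, and no match overlapped another. The ATF4 motif TGATGNAA was in none of the 6 records, and it was in 3.97% of all 32851 promoters of the same length. The TCF motif CTTTGA (16.0% of all promoters), the AP-1 motif TGANTCA (7.81%) and the octamer ATGCAAAT (1.74%) were also in none of the 6. The STAT motif was in the promoter of Ltb alone (8.30% of all promoters). GC boxes were in those of Alox12b and B4galnt2 (35.7% of all). The NF-kB motif was in those of Alox12b, Ltb and, at 1 of its 2 start sites, Serp2 (20.7% of all). No listed motif was shared by the promoters of all 5 genes. CpG content ran from 6 CpG in the 300 bases of Ubap1l, at 44.3% GC, to 34 at 1 Serp2 start site, at 71.3% GC.

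P2rx3 had the highest mean level of the 7 in WT per transcript length and was the one whose WT libraries differed most. It had 37 and 19 counts in the libraries labelled Ago1_2 KO, 5 and 15 in Drosha KO, 11 and 4 in Dgcr8 KO, against 846 and 178 in WT. In CPM these were 1.47 and 1.42, then 0.284 and 0.581, then 0.58 and 0.254, against 47.7 and 8.61 in WT. The lower WT library was still 5.85 times the highest knockout library, so the groups did not overlap. The log2 fold changes were -4.27 ± 0.75 in Ago1_2 KO, -5.95 ± 0.84 in Drosha KO and -6.02 ± 0.86 in Dgcr8 KO (SE from edgeR's fit, 2 libraries a group). Without WT 1 they were -2.53, -4.23 and -4.30, and without WT 2 they were -5.01, -6.69 and -6.77, so the size of the difference rests on which WT library is used. The Drosha KO value was -6.60 without Drosha KO 2, and the Dgcr8 KO value was -6.75 without Dgcr8 KO 1. Ssrp1, on the other strand, overlaps the gene by 229 bases and was not called in any knockout (adjusted p 0.318 to 0.533). Whether counting used strand is not known, so reads in that overlap cannot be told apart.

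Ubap1l had 9 and 12 counts in Ago1_2 KO, 9 and 55 in Drosha KO, 10 and 12 in Dgcr8 KO, against 384 and 268 in WT. The second Drosha KO library stood above the other knockout libraries at 2.13 CPM, and it was still below the lower WT library at 12.96 CPM. Log2 fold changes were -4.87 ± 0.70, -3.66 ± 0.63 and -4.74 ± 0.69 in Ago1_2 KO, Drosha KO and Dgcr8 KO. In Drosha KO the value was -5.06 without Drosha KO 2 and -3.01 without Drosha KO 1. In Ago1_2 KO it was -4.26 without Ago1_2 KO 1 and -5.57 without Ago1_2 KO 2. Gm17875, a processed pseudogene, overlaps Ubap1l by 1060 bases and was not analysed here. B4galnt2 had 16 and 9 counts in Ago1_2 KO, 3 and 7 in Drosha KO, 7 and 3 in Dgcr8 KO, against 146 and 115 in WT. Its lower WT library was 8.26 times the highest knockout library, the widest such gap of the 7. The log2 fold changes of B4galnt2 were -3.39 ± 0.47, -4.89 ± 0.53 and -4.56 ± 0.52 in the same order of knockouts. Gm11534, a non-coding gene on the other strand that overlaps B4galnt2 by 7227 bases, had 4 to 18 counts a library and was not called.

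The other 4 genes were low in every library, and each of their values rests on few counts. Ltb had 2 and 1 counts in Ago1_2 KO, 1 and 5 in Drosha KO, 2 and 3 in Dgcr8 KO, against 20 and 36 in WT. Hapln4 had 3 and 1 counts in Ago1_2 KO, 1 and 4 in Drosha KO, 4 and 2 in Dgcr8 KO, against 32 and 19 in WT. For both genes the most counts in a knockout library were a small part of the fewest in a WT library. Alox12b had 1 and 0 counts in Ago1_2 KO, 2 and 5 in Drosha KO, 2 and 1 in Dgcr8 KO, against 32 and 13 in WT. Serp2 had 6 and 1 counts in Ago1_2 KO, 3 and 3 in Drosha KO, 5 and 2 in Dgcr8 KO, against 28 and 28 in WT. Alox12b had the narrowest gap between the groups, with the lower WT library 3.24 times the highest knockout library, and Serp2 had the closest WT counts. Mir6973a, a microRNA gene on the same strand, overlaps Ltb by 78 bases and had 0 counts in every library.

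Scaled by library size, the summed counts of Ltb were 18.7 times lower in Ago1_2 KO than in WT (3 against 56 counts, exact 95% interval 6.08 to 93.5). Its log2 fold changes were -3.36 ± 0.66 in Drosha KO and -3.25 ± 0.68 in Dgcr8 KO, and the Drosha KO value was -4.50 without Drosha KO 2. Hapln4 had log2 fold changes of -3.64 ± 0.72 in Ago1_2 KO, -3.51 ± 0.69 in Drosha KO and -2.93 ± 0.68 in Dgcr8 KO. For Hapln4 the Ago1_2 KO value was -3.05 without WT 1 and the Drosha KO value was -4.42 without Drosha KO 2. Alox12b was 45.1 times lower in Ago1_2 KO (1 against 45 counts, exact 95% interval 7.70 to 1821) and 13.6 times lower in Dgcr8 KO (3 against 45 counts, 4.35 to 68.2). Its log2 fold change in Drosha KO was -2.88 ± 0.74. Without WT 1 the log2 fold changes of Alox12b were -4.28, -1.92 and -2.76 in Ago1_2 KO, Drosha KO and Dgcr8 KO, and without Ago1_2 KO 1 no count was left in that group. Serp2 had log2 fold changes of -3.03 ± 0.64, -3.33 ± 0.65 and -2.84 ± 0.63 in Ago1_2 KO, Drosha KO and Dgcr8 KO. Without the first Ago1_2 KO library its value there was -4.17, and without the first Dgcr8 KO library it was -3.46. The exact 95% intervals of Ltb and Alox12b cover counting error only. The genes were picked on these differences, so the intervals do not allow for that choice and test nothing.

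**Figure D1:**
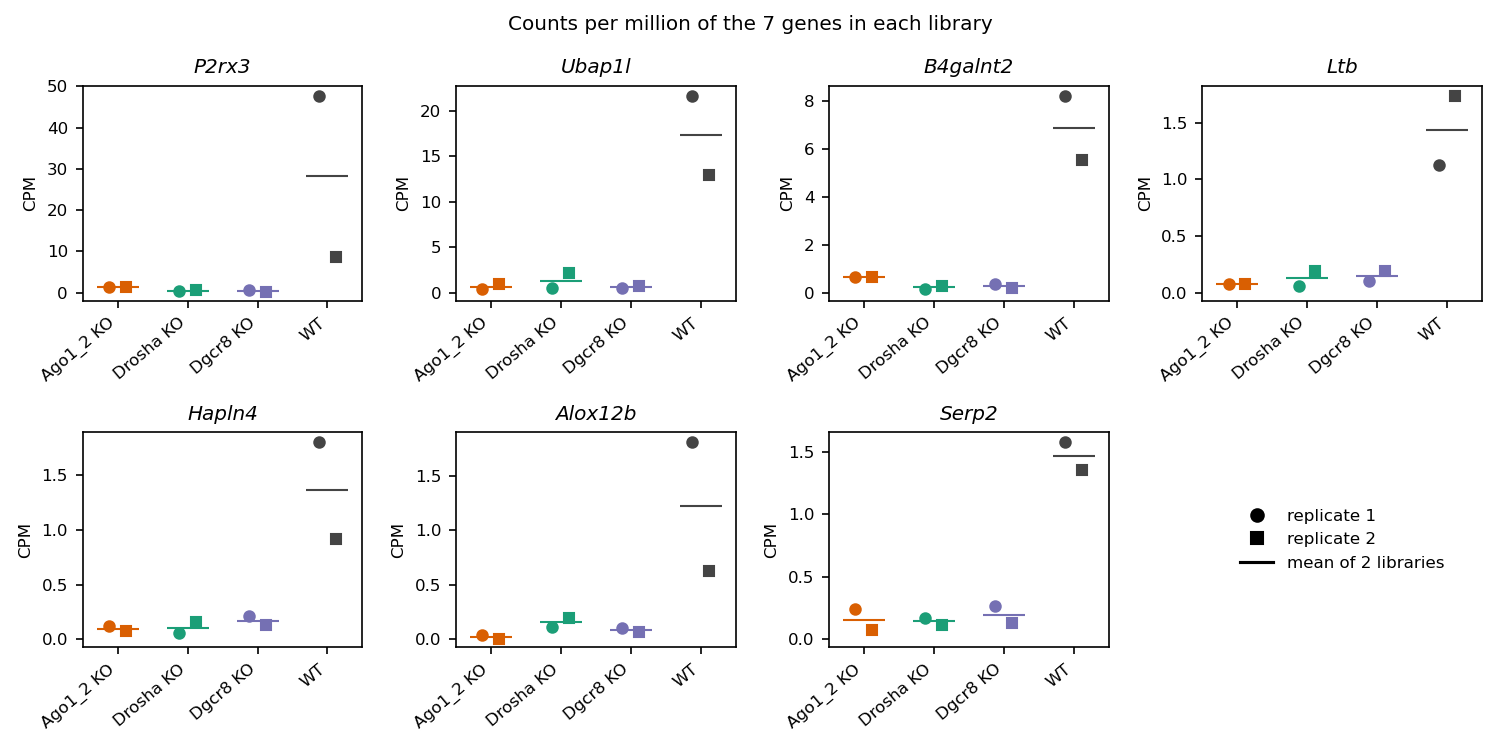
CPM, the counts scaled to a common library total (y axis, linear, a scale for each gene), of the 7 genes in the Ago1_2 KO, Drosha KO, Dgcr8 KO and WT libraries (x axis). Points are single libraries and bars are means of 2; all 6 knockout libraries lie below both WT libraries for each gene, and the WT points of P2rx3 lie far apart, at 47.7 and 8.61 CPM.

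All 7 genes had all 6 knockout libraries below both WT libraries. Of all 16388 genes tested, 10.7% had that order, and 0.702% were called lower in all 3 knockouts at an edgeR adjusted p under 0.05. Since the genes were picked on these values, nothing is read from the comparison. The medians of the 7 log2 fold changes were -4.10 in Ago1_2 KO, -3.51 in Drosha KO and -3.71 in Dgcr8 KO, beside -0.02, -0.02 and -0.03 over all genes tested. A gene was tested only if it was above 0.553 CPM in at least 2 libraries. Ltb, Hapln4, Alox12b and Serp2 passed through the WT libraries alone, so they could enter the test only by being higher in WT. P2rx3 was above that limit in 4 knockout libraries, Ubap1l in 3 and B4galnt2 in 2. Because each library is a mixture of many cells, fewer expressing cells and less RNA per cell cannot be told apart.

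**Figure D2:**
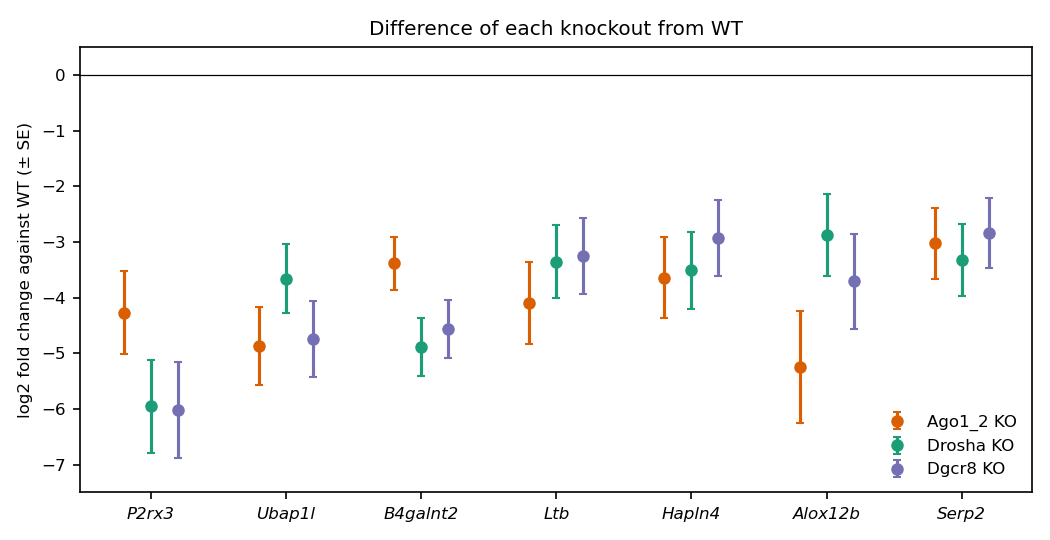
Log2 fold change against WT (y axis) of the 7 genes (x axis) in Ago1_2 KO, Drosha KO and Dgcr8 KO, with bars of 1 SE from edgeR's fit. The values lie between -6.02 for P2rx3 in Dgcr8 KO and -2.84 for Serp2 in Dgcr8 KO, and the order of the knockouts changes with the gene.

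Per kilobase of transcript, the order of the 7 genes in WT was led by P2rx3 and Ubap1l. P2rx3 stood at 17.1 and 3.09 CPM per kilobase in the WT libraries, Ubap1l at 9.18 and 5.49 and B4galnt2 at 4.78 and 3.23, so that their order differs between the WT libraries. Serp2 (1.14 and 0.975) and Ltb (0.745 and 1.15) overlapped each other below these. Alox12b (0.743 and 0.259) and Hapln4 (0.460 and 0.234) overlapped at the low end. In the knockouts the highest mean was 0.559 ± 0.485 CPM per kilobase, for Ubap1l in Drosha KO, and the lowest was 0.00818 ± 0.0116, for Alox12b in Ago1_2 KO (SD, n = 2 each).

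The differences among the knockouts were then computed. None of the 7 genes was called in any of the 3 comparisons by edgeR's quasi-likelihood test with Benjamini-Hochberg adjustment over all genes, by DESeq2 or by limma-voom. Choosing genes that were low in every knockout limited these differences, and 4 of the 7 had 0 to 6 counts in each knockout library, so nothing is read from the lack of calls. Of all genes tested, 0.732% were called between Ago1_2 KO and Drosha KO, 17.1% between Ago1_2 KO and Dgcr8 KO and 15.4% between Drosha KO and Dgcr8 KO. B4galnt2 had the smallest adjusted p of the 7 between Ago1_2 KO and Drosha KO, and it was not called. It stood at 0.637 and 0.673 CPM in Ago1_2 KO against 0.170 and 0.271 CPM in Drosha KO. Its log2 difference was 1.498 ± 0.564 (95% interval 0.24 to 2.76, edgeR adjusted p 0.381). Against Dgcr8 KO, at 0.369 and 0.191 CPM, the log2 difference of B4galnt2 in Ago1_2 KO was 1.18 (95% interval -0.09 to 2.44, adjusted p 0.180).

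P2rx3 stood at 1.47 and 1.42 CPM in Ago1_2 KO and at 0.254 to 0.581 CPM in the other 4 knockout libraries. The share of all genes with such an order was not counted, so nothing is read from it. The log2 difference of P2rx3 was 1.68 ± 0.84 between Ago1_2 KO and Drosha KO (95% interval -0.21 to 3.56, edgeR adjusted p 0.592). Between Ago1_2 KO and Dgcr8 KO it was 1.75 ± 0.88 (-0.22 to 3.71, adjusted p 0.198). The second of these passed the threshold with only the groups compared (adjusted p 0.0106) and with no filter on low counts (0.0060). Of all genes, 7171 and 3809 were called in those fits, against 2808 in the fit reported. The second also passed without WT 1 (log2 difference 1.77) and without WT 2 (1.76), where more genes were called too. The first passed with no filter (0.0278), where 648 genes were called, against 120 in the fit reported. Since each of these fits called more of all genes, nothing is read from the passes of P2rx3. For Ubap1l the log2 difference was -1.21 between Ago1_2 KO and Drosha KO (-2.77 to 0.35, adjusted p 0.673), -0.13 between Ago1_2 KO and Dgcr8 KO (-1.83 to 1.58, adjusted p 0.926) and 1.09 between Drosha KO and Dgcr8 KO (-0.46 to 2.63, adjusted p 0.310). For Ltb, Hapln4, Alox12b and Serp2 the intervals of all 12 differences held 0, and they reached from -5.17 to 3.16, both for Alox12b. A difference of several fold in either direction was not detectable for these 4 genes at this depth.

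**Figure D3:**
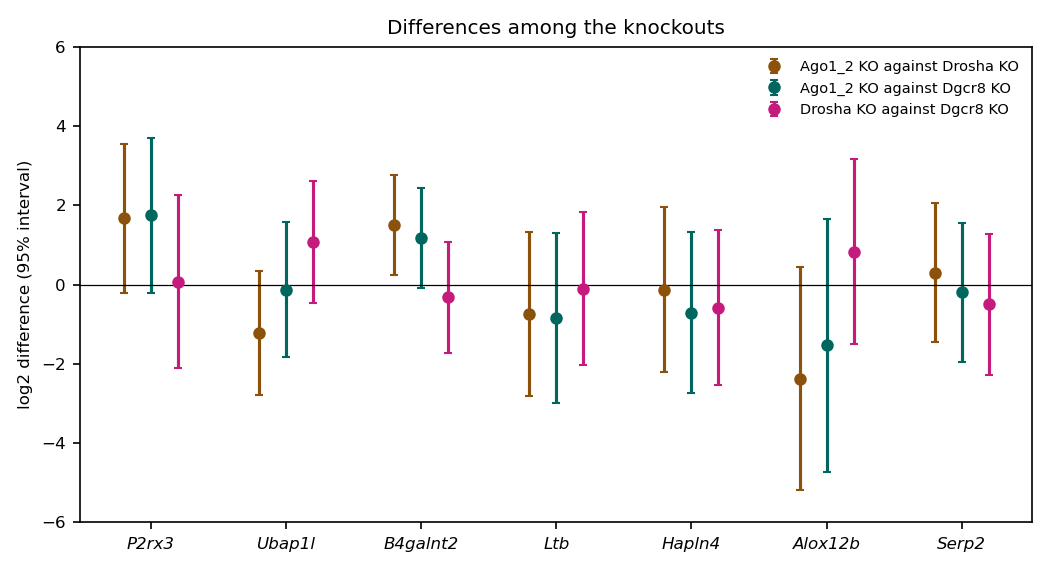
Log2 differences among the knockouts (y axis) for the 7 genes (x axis), with 95% intervals from edgeR's fit. The intervals are not adjusted for the 21 differences shown. That of B4galnt2 between Ago1_2 KO and Drosha KO, 0.24 to 2.76, alone leaves out 0. None of the differences passed the adjusted threshold, so nothing is read from that interval.

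The WT libraries were set apart for each gene. WT 1 was higher than WT 2 for 6 of the 7 genes after scaling by library size, beside 7854 of all 16388 genes tested. P2rx3 was 5.55 times higher in WT 1 (exact 95% interval of the count ratio 4.71 to 6.56) and Alox12b 2.87 times (1.47 to 5.96). The ratios of Hapln4 (1.97, 1.08 to 3.67), Ubap1l (1.67, 1.43 to 1.96) and B4galnt2 (1.48, 1.15 to 1.91) were also above 1. Serp2 (1.17, 0.666 to 2.04) and Ltb (0.648, 0.356 to 1.15) had intervals that held 1. These intervals cover counting error only, not the spread between libraries of 1 group. The median log2 difference of WT 1 minus WT 2 was 0.74 for the 7 genes, 0.08 for 27 listed genes of the ATF4 response and -0.03 for all genes tested. A difference of over 2-fold in favour of WT 1 was found for 2 of the 7 genes and for 8.08% of all genes tested. Each WT library alone lay above the mean of the 6 knockout libraries for every gene, by 9.57 to 62.4 times for WT 1 and by 7.31 to 15.0 times for WT 2.

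**Figure D4:**
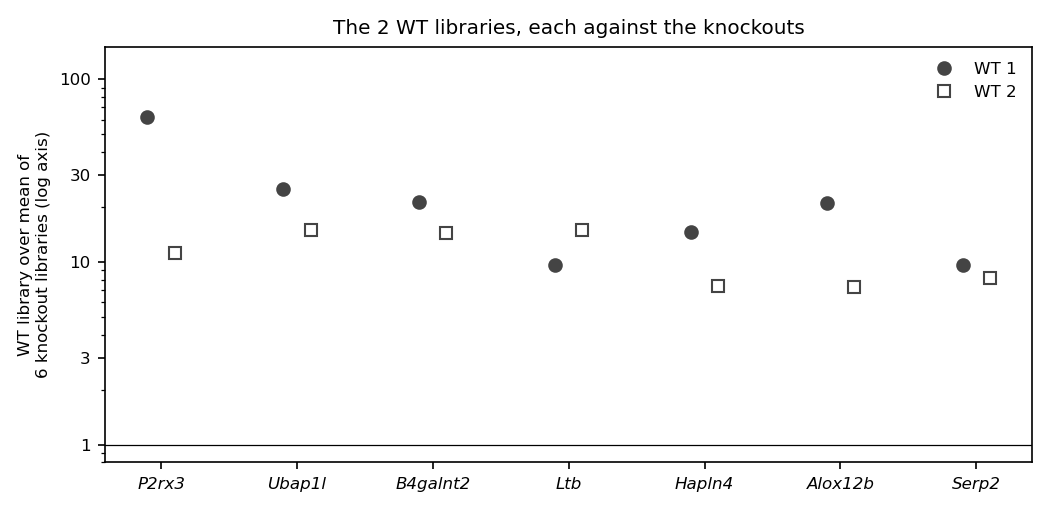
Level in WT 1 (filled circles) and WT 2 (open squares) divided by the mean CPM of the 6 knockout libraries (y axis, log axis) for the 7 genes (x axis). Both libraries lie above 7 for each gene, and P2rx3 shows the widest split, 62.4 for WT 1 and 11.2 for WT 2.

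Relatives of the 7 genes, meaning family members, partners and pathway genes, were listed and tested over all genes. Of 66 listed, 65 were in the table and 50 were tested. In Ago1_2 KO 4 were higher and 1 lower, beside 10.2% of all genes called higher and 7.38% called lower. In Drosha KO 2 were higher and 1 lower (6.54% and 4.83% of all genes), and in Dgcr8 KO 0 were higher and 3 lower (2.45% and 4.48% of all genes). The median log2 fold changes of the 50 were 0.08, -0.03 and -0.30 in that order of knockouts. With single libraries left out the counts moved strongly, and so did the counts over all genes. Both were highest without WT 1 in each knockout, so the movement is not particular to the relatives. With only the groups compared, the calls against WT of P2rx2, P2rx7 and Has3 described below were kept, and those of Mvb12a, Mvb12b, B4galnt4, Cd44, Alox5ap and Ssr3 were lost.

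Among the P2X receptors, P2rx7, an ATP-gated channel best known in immune cells, rose in Ago1_2 KO and in Drosha KO. It had 83.6 and 120 CPM in Ago1_2 KO, 170 and 161 CPM in Drosha KO and 44.2 and 34.6 CPM in Dgcr8 KO, against 23.3 and 24.0 CPM in WT. Its log2 fold change was 2.11 ± 0.23 in Ago1_2 KO (edgeR adjusted p 0.00094) and 2.81 ± 0.24 in Drosha KO (adjusted p 0.000649). It was 0.74 ± 0.22 in Dgcr8 KO, which was not called (adjusted p 0.0727). Both calls were kept with each of the 8 libraries left out. P2rx2, whose product can join P2X3 in a mixed channel, rose in Ago1_2 KO by a log2 fold change of 2.06 ± 0.47 (adjusted p 0.0194), to 3.54 and 7.33 CPM against 1.52 and 1.06 CPM in WT. That call was lost without Ago1_2 KO 2 or WT 2, at an adjusted p of up to 0.166.

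The nearest relatives of the other genes mostly did not pass the test. Ubap1 was measured in every library at 50 CPM or more and was not called in Ago1_2 KO, Drosha KO or Dgcr8 KO (log2 fold changes 0.47, 0.63 and 0.35, adjusted p 0.136, 0.0758 and 0.269). Of the other ESCRT-I subunits, Mvb12a fell in Dgcr8 KO (log2 fold change -1.44 ± 0.30, adjusted p 0.0265) and Mvb12b rose in Drosha KO (0.81 ± 0.22, adjusted p 0.0431). The glycosyltransferase genes B4galnt1 and B4galnt3 were not called, and B4galnt4 fell in Dgcr8 KO (log2 fold change -0.80 ± 0.20, adjusted p 0.0417). Each of these 3 calls was lost without some libraries, and the B4galnt4 call also with library size only, limma-voom and the GC offset. The Mvb12a call was lost without either Ago1_2 KO library, either Dgcr8 KO library or WT 2 (adjusted p up to 0.256), the B4galnt4 call without either Ago1_2 KO or either Dgcr8 KO library (up to 0.322), and the Mvb12b call without any library but Drosha KO 2 (up to 0.150).

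In the lymphotoxin pathway no tested gene was called in any knockout. Ltbr, the receptor, had log2 fold changes of 0.41, -0.01 and -0.61 in Ago1_2 KO, Drosha KO and Dgcr8 KO (adjusted p 0.424, 0.989 and 0.267). Lta, the partner of Ltb in its complex, had 1 count in all 8 libraries together, and Tnf had none. In the hyaluronan matrix Has3, a hyaluronan synthase, rose in Ago1_2 KO by a log2 fold change of 2.402 ± 0.501 (adjusted p 0.0135). It had 13.2 and 8.98 CPM there against 2.82 and 1.40 CPM in WT, and the call was lost without Ago1_2 KO 1 or WT 2 (adjusted p up to 0.0979). Cd44, a hyaluronan receptor, fell in Drosha KO by 2.82 ± 0.72 on the log2 scale (adjusted p 0.0344), on 2 and 2 counts against 10 and 17 in WT. That call was lost without any library but WT 1 (adjusted p up to 0.134), and by DESeq2. The other link protein genes were not called: Hapln3 had an adjusted p of 0.451, 0.739 and 0.0929, and Hapln1 and Hapln2 had at most 2 counts in a library.

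Aloxe3, the partner and neighbour of Alox12b, was not called (log2 fold changes -0.36, -0.12 and -1.53 in Ago1_2 KO, Drosha KO and Dgcr8 KO, adjusted p 0.737, 0.923 and 0.184). Alox5ap, whose product helps the leukotriene-forming lipoxygenase, rose in Ago1_2 KO (log2 fold change 1.51 ± 0.46, adjusted p 0.0480) and fell in Dgcr8 KO (-2.07 ± 0.51, adjusted p 0.0429). The first call was lost without either Ago1_2 KO library, either Dgcr8 KO library or WT 1 (adjusted p up to 0.229), and the second without either Ago1_2 KO library, either Dgcr8 KO library or WT 2 (up to 0.297), and with limma-voom or the GC offset. Serp1 was not called, with 87.3 and 63.5 CPM in Ago1_2 KO, 89.3 and 61.7 CPM in Drosha KO and 116 and 98.3 CPM in Dgcr8 KO, against 72.1 and 83.2 CPM in WT (adjusted p 0.920, 0.924 and 0.225). Of the 11 listed translocon genes only Ssr3 was called against WT, lower in Ago1_2 KO (log2 fold change -0.57 ± 0.17, adjusted p 0.0498). It was called in 2 of the 8 fits with a library left out, those without Drosha KO 1 and without WT 2 (adjusted p up to 0.274), and was not called with DESeq2 size factors, library size only or either other filter on low counts.

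The 2 nearest protein-coding genes on each side of each of the 7 genes were examined in the same way. Of these 28 neighbours, 17 were tested, and 2 were called lower in Ago1_2 KO, 1 in Drosha KO and 0 in Dgcr8 KO, where 7.38%, 4.83% and 4.48% of all genes were. None was called higher. These counts are near the share over all genes. Their median log2 fold changes were -0.28, -0.25 and -0.12. Lst1, a gene of white blood cells that lies 6000 bases from Ltb, was called lower in Ago1_2 KO and Drosha KO. It had 2 and 3 counts in Ago1_2 KO, 0 and 2 in Drosha KO, 20 and 11 in Dgcr8 KO, against 12 and 33 in WT. Its log2 fold changes were -3.02 ± 0.82 (edgeR adjusted p 0.0329), -4.48 ± 0.93 (0.0172) and -0.37 ± 0.64 (0.719). So the Dgcr8 KO libraries, in which Ltb was low, held Lst1 counts that overlapped those of WT. The Ago1_2 KO call was lost without either Ago1_2 KO library, either Dgcr8 KO library or WT 2 (adjusted p up to 0.255) and by DESeq2, and the Drosha KO call without Drosha KO 1 or WT 2 (up to 0.0815).

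The other neighbour called was Nufip1, 395435 bases from Serp2, lower in Ago1_2 KO (log2 fold change -0.64 ± 0.20, adjusted p 0.0498). That call was kept only without WT 1, among the 8 fits with a library left out (adjusted p up to 0.2498), and it was lost with DESeq2 size factors, library size only, limma-voom, either other filter and only the groups compared. Pdcd7, 1398 bases from Ubap1l, was not called (adjusted p 0.285, 0.518 and 0.289 in Ago1_2 KO, Drosha KO and Dgcr8 KO). Ncan, a brain proteoglycan gene 2223 bases from Hapln4, was low in all libraries, at 2 to 11 counts, and was not called.

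**Figure D5:**
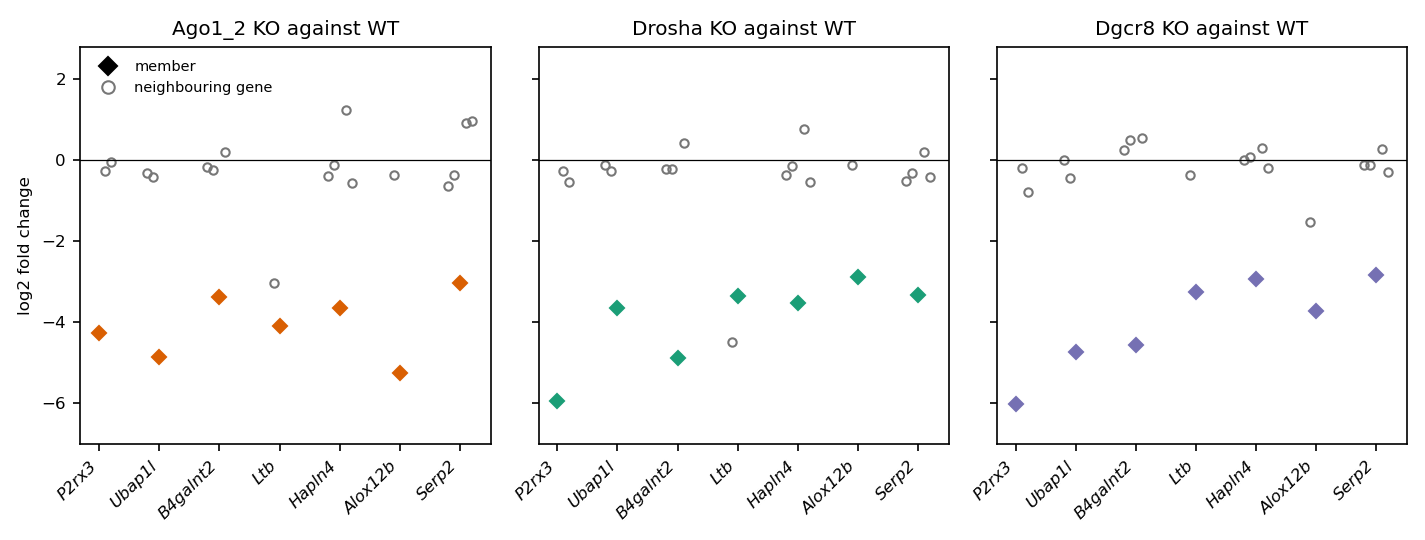
Log2 fold change against WT (y axis) of each of the 7 genes (diamonds) and of the tested genes among the 4 nearest to it (open circles, left to right in genome order; x axis, the gene they surround) in Ago1_2 KO, Drosha KO and Dgcr8 KO. Apart from Lst1 beside Ltb, at -3.02 in Ago1_2 KO and -4.48 in Drosha KO, the neighbours lie between -1.53 and 1.25.

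The rank of the 7 genes was described with the smallest of the 3 falls against WT. Ranked were 12273 genes with a mean of 1 CPM or more in WT. Genes without a symbol, or with that of a predicted gene or clone (such as Gm or Rik names), were left out. The 7 held ranks 1 (P2rx3), 2 (Ubap1l), 4 (B4galnt2), 5 (Ltb), 8 (Hapln4), 9 (Alox12b) and 11 (Serp2). The gaps were filled by Gjb2, a gap junction gene at rank 3, and by Slc7a11, Chac1 and Inhbe, which are on the list of the ATF4 response. Serp2, the last inside, had a smallest fall of -2.84 on the log2 scale. The next genes outside were Reep6 (-2.73), Esrp1 (-2.71) and Cldn7 (-2.70), followed by Mef2b, Cldn6 and Angptl6. There is thus no step between the last gene chosen and the first left out.

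Gjb2 had 3 and 0 counts in Ago1_2 KO, 1 and 2 in Drosha KO, 1 and 4 in Dgcr8 KO, against 43 and 17 in WT, so it resembled the 4 sparse genes. Esrp1, a splicing regulator of epithelial cells, had 0.224 to 0.699 CPM in the knockout libraries against 7.28 and 1.16 CPM in WT. Cldn7, which encodes a tight junction protein, had 0.422 to 3.22 CPM in the knockout libraries against 17.0 and 7.98 CPM in WT. Its relative Cldn6 had 0.823 to 1.98 CPM in the knockout libraries against 14.4 and 5.18 CPM in WT. Of these 10 genes, 9 were higher in WT 1 than in WT 2, beside 7854 of all 16388 genes tested. Angptl6 was the exception, at 4.23 and 11.1 CPM.

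Among the ranked genes, those most like the 7 over the 8 libraries were found by Pearson's r of log2 CPM with the mean of the 7. They were Gars (0.987), Aldh18a1 (0.985), Slc1a5 (0.984), Chac1 (0.976) and Gch1 (0.972). Each of the 7 had an r of 0.917 to 0.977 with the mean of the other members. The 8 points of each r share library and depth, and the choice of the 7 genes fixes the low level of 6 of the libraries. Gars encodes a tRNA synthetase, Aldh18a1 an enzyme of proline synthesis, Slc1a5 a glutamine carrier, Chac1 an enzyme that breaks down glutathione and Gch1 an enzyme of biopterin synthesis. Gars had 342 to 365 CPM in the 6 knockout libraries against 745 and 699 CPM in WT, and its log2 fold changes were -1.004, -1.064 and -1.037. Gch1 had 0.227 to 0.438 CPM in the knockout libraries against 2.60 and 1.69 CPM in WT. Aldh18a1 and Chac1 are 2 of the 28 genes on the ATF4 list.

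Of those 28 genes, 27 were tested. In Ago1_2 KO 20 were lower, in Drosha KO 21 and in Dgcr8 KO 22, and none was higher at an edgeR adjusted p under 0.05. Of all genes tested, 7.38%, 4.83% and 4.48% were called lower and 10.2%, 6.54% and 2.45% higher in that order of knockouts. DESeq2 called 0 of them higher as well. The median log2 fold changes were -1.29, -1.78 and -1.76. Without Dgcr8 KO 1 or Dgcr8 KO 2 fewer of them were called lower in Dgcr8 KO, and fewer genes were called over the whole table too. The same held in Ago1_2 KO without Ago1_2 KO 1 or Ago1_2 KO 2, and in Drosha KO without Drosha KO 1.

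Markers of the tissues in which these genes are best known were set beside them. Of 10 sensory neuron markers, 7 were under 1 CPM in every library and Prdm12 had no counts. Their summed level was 7.96 to 8.46 CPM in Ago1_2 KO, 6.58 to 7.36 CPM in Drosha KO and 16.0 to 16.3 CPM in Dgcr8 KO, against 10.7 to 16.7 CPM in WT. This sum lay within the WT range in Dgcr8 KO and below it in Ago1_2 KO and Drosha KO. The 10 markers of lymphocytes and other blood cells summed to 33.3 to 34.9, 33.0 to 36.7 and 15.2 to 17.9 CPM in the 3 knockouts in the same order, against 23.9 to 29.7 CPM in WT, with Ms4a1 and Itgax at no counts and 6 of 10 under 1 CPM everywhere.

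The 10 keratinocyte markers summed to 17.5 to 20.7, 7.75 to 9.99 and 27.1 to 28.0 CPM in Ago1_2 KO, Drosha KO and Dgcr8 KO, against 19.0 to 23.0 CPM in WT. Ivl and Dsg3 had no counts and 8 of the 10 were under 1 CPM everywhere. The 10 markers of neurons and glia summed to 114 to 119, 64.8 to 118 and 35.5 to 44.7 CPM in the knockouts, against 19.1 to 19.8 CPM in WT, and Olig2 had no counts. Of these 10, 5 were under 1 CPM in every library, and the sum was above WT in each knockout. The 10 fibroblast or feeder markers summed to 14.3 to 18.2, 10.95 to 15.47 and 9.72 to 10.4 CPM in the knockouts, against 12.2 to 15.5 CPM in WT. The part of these marker sums in the levels of the 7 genes was not tested.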

How the data were processed

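Polyadenylated RNA was measured in 8 libraries, 2 for each of 4 genotypes. The authors deposited whole-number counts per gene. Per the labels' protocols, the TruSeq kit was used in a form that keeps strand (reverse), and per the submitters' processing notes STAR 2.4.2a and builds mm10 and GRCm38 were used. The tool for counting, its use of strand and its gene models were not given in the sources used here. All count columns were used, with 0 left out.

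Gene identifiers were matched without version to GENCODE M21 (GRCm38), and 47224 of 47643 matched a symbol. The filterByExpr function (by genotype) kept 16388 genes, and TMM factors set the library sizes. A mean per genotype was fitted over all 8 libraries with robust estimates (edgeR 4.0.16 and limma 3.58.1 under R 4.3.3). Calls rest on edgeR's quasi-likelihood F test at a Benjamini-Hochberg adjusted p under 0.05 over all genes tested. SE and 95% intervals come from the same test. CPM use TMM-scaled sizes, and CPM per kilobase the summed exon length. Count ratios have exact 95% binomial intervals.

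The 7 genes, the lists of relatives, ATF4 genes and markers, and the motifs were chosen with earlier results of these data known, and the lists support nothing on their own. Named genes were the 7, the first 10 others by smallest fall, the 5 most alike (log2 CPM, prior count 2), the 2 nearest protein-coding genes on each side, and up to 4 called members of each list by p-value, with paralogs and partners. Neighbours were named when called, or as examples chosen after their values were seen. Promoter sequences came from RefSeq (GRCm38.p6). Only the edgeR fit of Drosha KO against WT was tried on simulated data. Changes were set there in genes of higher counts than Ltb, Hapln4, Alox12b and Serp2. The falls set were smaller than those of P2rx3, Ubap1l and B4galnt2, and all genes were given the same spread. The trial therefore does not cover the 7 genes.

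Alternatives changed the scaling (size factors of DESeq2, or totals alone), the test (DESeq2 1.42.0, limma-voom), the filter (none, or 1 CPM in 2 libraries), the model (an offset for transcript GC content with a lowess span of 0.3, the replicate number as a block, both together) and the libraries (those of the groups compared, or all but 1). Other computations used Python 3.11.15, numpy 2.4.6, pandas 2.3.3, scipy 1.17.1 and matplotlib 3.10.9.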

Additional observations from a re-analysis of the deposited data

Results flagged for a closer look

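The knockouts differed from each other in 11 of the tested relatives and neighbours named above, in 18 comparisons, by edgeR's test of the difference itself with Benjamini-Hochberg adjustment over all genes. All of these were against Dgcr8 KO, where 17.1% of all genes were called in Ago1_2 KO and 15.4% in Drosha KO. Many of the 11 had been named for a call against WT, so their number is not a share. Over all 50 relatives tested, 11 were higher and 2 lower in Ago1_2 KO than in Dgcr8 KO. In Drosha KO 10 were higher and 4 lower than in Dgcr8 KO. Of the 17 neighbours tested, 0 were called in Ago1_2 KO and 1 in Drosha KO. Relatives not named above are left out below. P2rx2 was higher in Ago1_2 KO than in Dgcr8 KO by 2.90 ± 0.50 on the log2 scale (SE, adjusted p 0.00546). P2rx7 was higher than in Dgcr8 KO by 1.37 in Ago1_2 KO (adjusted p 0.00429) and by 2.07 in Drosha KO (0.00112). Mvb12a was higher than in Dgcr8 KO by 1.03 in Ago1_2 KO (adjusted p 0.0432) and by 1.26 in Drosha KO (0.0227), and Mvb12b by 0.93 (0.0203) and 1.33 (0.00573). B4galnt4 was higher than in Dgcr8 KO by 0.90 in Ago1_2 KO (adjusted p 0.0142) and by 0.81 in Drosha KO (0.0242), and Has3 by 3.09 (0.00492) and 1.83 (0.0414). B4galnt1 was higher in Drosha KO than in Dgcr8 KO by 1.46 (adjusted p 0.0235), and Hapln3 in Ago1_2 KO than in Dgcr8 KO by 1.85 (0.0250). Alox5ap was higher than in Dgcr8 KO by 3.57 in Ago1_2 KO (adjusted p 0.00255) and by 3.25 in Drosha KO (0.00464). Ssr3 was lower than in Dgcr8 KO, at -0.87 in both Ago1_2 KO (adjusted p 0.00977) and Drosha KO (0.0115). Lst1, beside Ltb, was lower in Drosha KO than in Dgcr8 KO, at -4.11 ± 0.95 (adjusted p 0.0208). With single libraries left out, the difference of P2rx7 between Drosha KO and Dgcr8 KO and that of Alox5ap between Ago1_2 KO and Dgcr8 KO were called in all 8 fits, and the other 16 were each lost in at least 1. With the other settings, 10 of the 18 were called in every fit. The GC offset ended both calls of B4galnt4 and Ssr3, that of B4galnt1 and those of Mvb12a and Mvb12b in Ago1_2 KO. The call of Mvb12a in Ago1_2 KO was also lost with limma-voom, and that of Has3 in Drosha KO with library size only, limma-voom and only the groups compared.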

How the results depend on the processing

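In all alternatives run, the median log2 fold change of the 7 genes stayed between -4.57 and -3.05 in the 3 knockouts. DESeq2 gave -3.61 in Drosha KO, limma-voom -3.37 in Drosha KO and -3.25 in Dgcr8 KO, and the GC offset -3.43 in Dgcr8 KO. A filter of 1 CPM, which left 5 of the 7, gave -3.67 in Drosha KO and -4.57 in Dgcr8 KO. Relatives called in Ago1_2 KO, Drosha KO and Dgcr8 KO numbered 8, 6 and 8 with DESeq2. With no filter they were 10 in Drosha KO and 11 in Dgcr8 KO, with limma-voom or the GC offset 1 in Dgcr8 KO, and with only the groups compared 3, 1 and 0. The genes called against WT over the whole table numbered 2887, 1862 and 1136. They were 4431, 3413 and 3241 with no filter, 589 in Drosha KO and 723 in Dgcr8 KO with only the groups compared, and in Dgcr8 KO 2355 with DESeq2 and 704 with the GC offset. Between Ago1_2 KO and Drosha KO 120 genes were called, 362 with DESeq2, 648 with no filter and 15 with only the groups compared, and between Ago1_2 KO and Dgcr8 KO 2808, against 7171 with only the groups compared. With no filter, P2rx3 was the 1 gene of the 7 called in Ago1_2 KO against Drosha KO and against Dgcr8 KO. With only the groups compared it was the 1 called in Ago1_2 KO against Dgcr8 KO, where 3 of the 7 were tested. The difference of Hapln4 between Ago1_2 KO and Drosha KO was 0.015 with limma-voom, and that of P2rx3 between Drosha KO and Dgcr8 KO was -0.0070 with the GC offset, both near 0 also in the fit reported.

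The labels do not say what a replicate number stands for, and the correlation of replicate differences between groups was 0.096 to 0.245. With the replicate number as a block the median of the 7 was -3.43 in Drosha KO, 8, 8 and 9 relatives were called, and 2884 genes were called in Drosha KO and 2795 in Dgcr8 KO. With the block and the GC offset together the medians were -3.42 in Drosha KO and -3.39 in Dgcr8 KO, 8, 10 and 1 relatives were called, and 3089 genes were called in Drosha KO.

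With 1 library left out, which leaves a group with a lone library assumed to vary like the others, the medians of the 7 ranged from -4.17 to -3.05 in Ago1_2 KO, -4.50 to -3.07 in Drosha KO and -4.28 to -3.51 in Dgcr8 KO. Relatives called ranged from 2 to 9, 1 to 11 and 0 to 12, and all genes called from 556 to 4955, 714 to 4003 and 40 to 4245. Among the knockouts, all genes called ranged from 6 to 176 (Ago1_2 KO against Drosha KO), 513 to 4239 (Ago1_2 KO against Dgcr8 KO) and 320 to 3900 (Drosha KO against Dgcr8 KO), and members called in Ago1_2 KO against Dgcr8 KO from 0 to 1. Uncalled log2 differences that changed sign were, between Ago1_2 KO and Drosha KO, Serp2 (-0.85 to 0.74), Hapln4 (-0.57 to 0.80), Ubap1l (-1.91 to 0.18) and Ltb (-1.25 to 0.42). Between Ago1_2 KO and Dgcr8 KO they were Ubap1l (-0.82 to 0.49) and Serp2 (-1.34 to 0.42), and between Drosha KO and Dgcr8 KO, Ltb (-1.25 to 0.41), P2rx3 (-0.57 to 0.80), Ubap1l (-0.31 to 1.73), B4galnt2 (-0.72 to 0.24) and Serp2 (-0.88 to 0.13). The cause was not tested. Low counts limit Ltb, Hapln4, Alox12b and Serp2, at 0 to 6 counts in a knockout library.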
